A study of Mus musculus with 6 samples.

Results

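Integrins are receptors that hold a cell to its surrounding matrix, and laminins are large cross-shaped proteins of the basement membrane, a sheet of matrix that several integrins bind. The rule was set with earlier results of these data known. By symbol alone, with no measured value used in the match, it took every integrin alpha subunit, integrin beta subunit and laminin chain. It found 37 of the 21853 genes in the table. They were 18 integrin alpha, 8 integrin beta, 5 laminin alpha, 3 laminin beta and 3 laminin gamma subunits. An integrin is a pair of 1 alpha and 1 beta subunit, and the pair sets what is bound: collagen, laminin, or proteins such as fibronectin and vitronectin that carry the short motif arginine-glycine-aspartate (RGD). A laminin is a trimer of 1 alpha, 1 beta and 1 gamma chain, in which the alpha chain carries the main binding sites for integrins.

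The libraries came from mouse embryonic fibroblasts, connective tissue cells grown from embryos, of the C57BL/6J strain with a labelled age of 12 days. There were 3 libraries of cells given red clover extract (RCE) and 3 of cells given water (con). By their labels the cells of all 6 carried the same xCT knockout, con included, so neither group was to have the cystine importer that Slc7a11 encodes. The sources used here give neither the dose nor the time of exposure, and do not say whether replicates were separate cultures or embryos. A p-value therefore weighs a change against library-to-library spread only, and part of that spread may be technical.

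The table holds FPKM, fragment counts scaled by transcript length and by library size, so levels can be compared between genes. Depth recovered from the steps between low values was 45650000 to 58950000 fragments per library. Slc7a11 was at 0.007 to 0.037 FPKM in the 6 libraries. All 10 fibroblast markers reached a mean of 1 FPKM, and their summed level was 3823 to 3915 FPKM with RCE, against 4142 to 4270 FPKM in con. Replicate 1 of both groups stood apart from replicates 2 and 3 on a principal component with 36.5% of the variance over the 10870 genes averaging 1 FPKM or more, while the component with 58.1% separated RCE from con. Changes were tested on those 10870 genes with limma on log2(FPKM + 1), RCE minus con, and a change was called at a Benjamini-Hochberg adjusted p below 0.05. A change on that scale understates the change of a low gene. The median change of all genes tested was +0.08. Of the fibroblast markers Pdgfrb (-0.31, adjusted p = 0.0223) and Dcn (-0.22, adjusted p = 0.0481) were called lower, and the others were not called.

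The receptor transcripts of these fibroblasts were dominated by a single beta subunit, Itgb1, and a few alpha subunits. Itgb1, the partner of 12 alpha subunits, was the most abundant member in every library, at 508, 581 and 589 FPKM with RCE and 540, 622 and 607 FPKM in con (replicates 1, 2 and 3). Its share of the summed FPKM of all 8 beta subunits was 87.3 ± 0.266% with RCE and 86.8 ± 0.490% in con (SD, n = 3 each). Itgb5, which pairs with Itgav to bind vitronectin, came next at 76.1 ± 4.72 FPKM with RCE and 78.3 ± 3.01 FPKM in con. Itgb3, another vitronectin-binding partner of Itgav and also the platelet beta subunit, came after it, at 3.93 ± 0.0658 FPKM with RCE and 9.62 ± 0.421 FPKM in con. The order of these 3 beta subunits was the same in all 6 libraries, with no overlap between neighbours. The other 5, Itgb7, Itgb2, Itgb4, Itgb8 and Itgb6, had means below 1 FPKM over the 6 libraries.

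Among alpha subunits, Itga5, which makes the classical fibronectin receptor with Itgb1, led at 141 ± 3.53 FPKM with RCE and 145 ± 6.16 FPKM in con. Itga11, the collagen receptor subunit of fibroblasts, was at 59.7 ± 2.22 FPKM with RCE and 70.8 ± 2.61 FPKM in con. Itgav, the RGD-binding subunit with the most beta partners, was at 52.6 ± 0.754 FPKM with RCE and 60.9 ± 1.32 FPKM in con. These 3 made up the bulk of the alpha transcripts that can pair with Itgb1: Itga5 held 50.5 ± 0.734% with RCE and 48.0 ± 1.55% in con, Itga11 21.4 ± 0.715% and 23.4 ± 1.10%, and Itgav 18.9 ± 0.0963% and 20.1 ± 0.399%. A second tier lay well below these. It held Itga7, a laminin receptor subunit known best from muscle (7.77 ± 0.518 FPKM with RCE and 7.90 ± 0.700 in con), and Itga8, which binds nephronectin (5.18 ± 0.130 and 5.74 ± 0.201). Below these came the collagen receptor subunit Itga1 (3.89 ± 0.270 FPKM with RCE and 3.56 ± 0.0844 in con), the laminin receptor subunits Itga6 (2.97 ± 0.248 and 2.73 ± 0.104) and Itga3 (2.78 ± 0.115 and 2.66 ± 0.240), and Itga9, which binds tenascin-C (1.61 ± 0.0572 and 1.48 ± 0.0709). Within each group the ranges of Itga6 and Itga3 overlapped, so these neighbours were not told apart by their spread. Of 5 striated muscle markers Des and Acta1 reached a mean of 1 FPKM. That list summed to 126 to 146 FPKM with RCE and 116 to 135 FPKM in con. Des was called higher (change +0.39, adjusted p = 0.0203 in limma), Acta1 was not called, and Myod1 was at 0 in every library. The part of muscle-like cells in the Itga7 level was not tested.

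The remaining 9 alpha subunits were below the 1 FPKM mean. The collagen receptor subunits Itga10 and Itga2 and the platelet subunit Itga2b were closest to it, at means of 0.747, 0.681 and 0.484 FPKM over the 6 libraries. Itga4, Itgam, Itgal, Itgae, Itgax and Itgad ranged down from 0.174 to 0.002 FPKM, and Itgad was listed at 0 in 4 libraries. Of the exon bases of Itga10, 33.5% are shared with a second annotated gene on the same strand (Gm42957), and of those of Itgam 68.7% are shared with Gm49368, so their low levels are uncertain. Itgb2, the beta subunit of most leucocyte integrins, averaged 0.288 FPKM, and the pan-leucocyte marker Ptprc was at 0.030 to 0.045 FPKM with RCE and 0.051 to 0.079 FPKM in con. Of the 8 leucocyte markers 2 reached a mean of 1 FPKM, Lyz2 and Cd68, and their list summed to 11.3 to 12.7 FPKM with RCE, against 15.5 to 16.5 FPKM in con. Lyz2 was called lower (change -0.43, adjusted p = 0.00468 in limma), and Cd68 was not called (-0.12, adjusted p = 0.511).

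**Figure D1:**
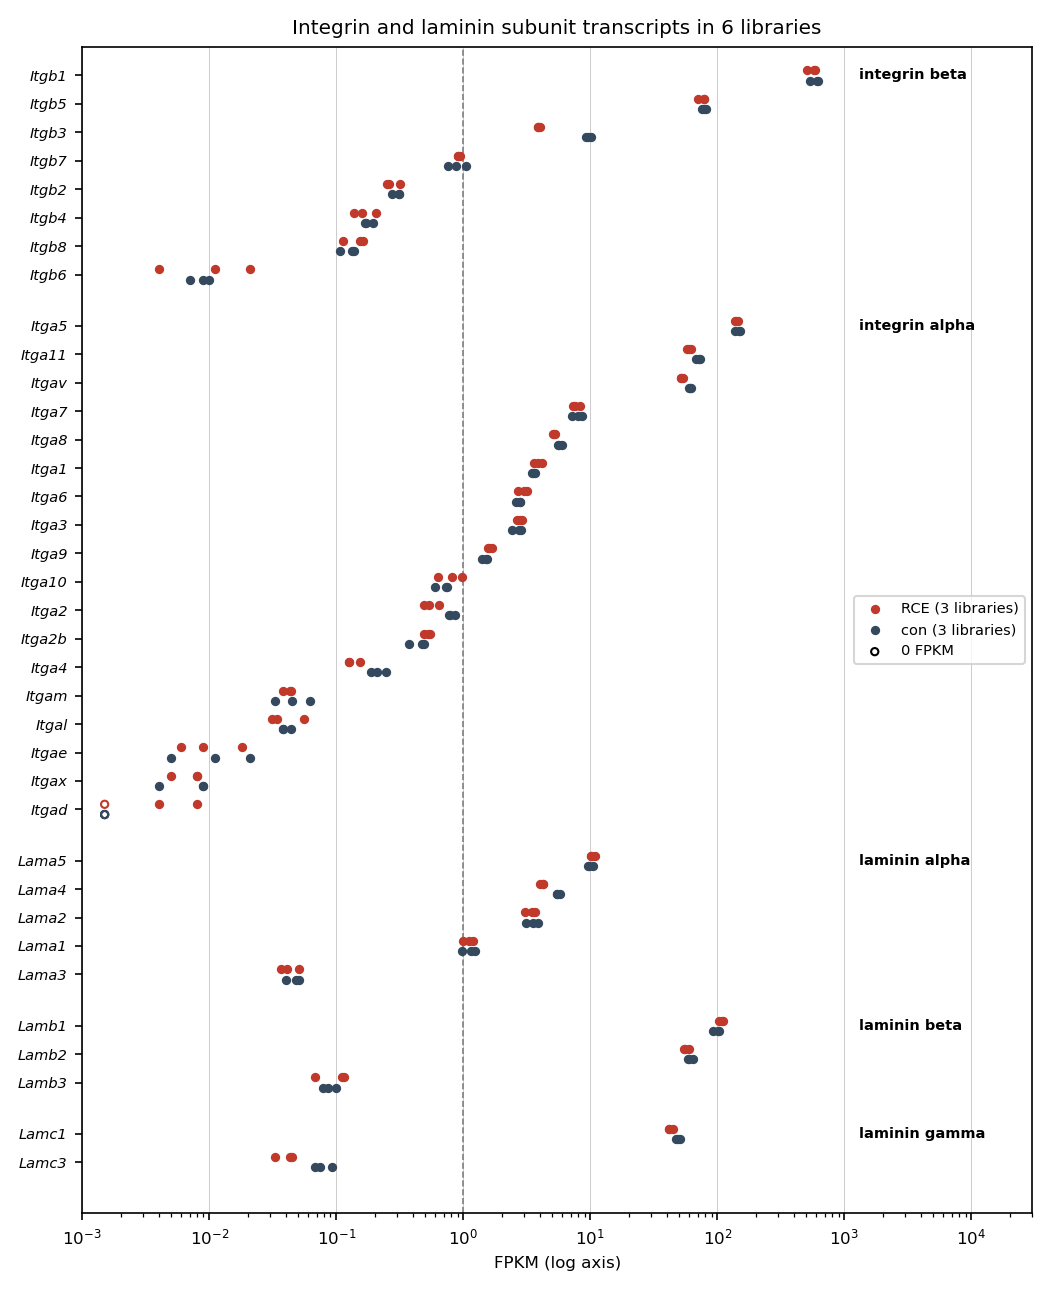
Level of the subunit transcripts in FPKM on a log axis, with 1 point per library, RCE above con in each row, and subunits ordered by mean within their family. The dashed line is the 1 FPKM mean required for testing. Itgb1 lies at 508 to 622 FPKM, and the alpha subunits Itgam, Itgal, Itgae, Itgax and Itgad lie below 0.1 FPKM.

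Setting the subunits together as receptors, 11 of 24 known pairs had both transcripts at a mean of at least 1 FPKM, and the same number did so within each group. The level of the scarcer transcript of a pair is given here as a description, since transcripts do not show assembled receptors. Pairs for RGD proteins made up 5 of the 11, those for laminin 3, those for collagen 2, and Itga9 with Itgb1 was the other. None of the 6 leucocyte pairs was among them. The scarcer transcript was highest for the fibronectin receptor Itga5 with Itgb1 (141 FPKM with RCE and 145 FPKM in con). The collagen receptor Itga11 with Itgb1 (59.7 and 70.8 FPKM) and the pairs of Itgav with Itgb1 and with Itgb5 (52.6 and 60.9 FPKM) followed. In all 9 expressed pairs with Itgb1 the alpha subunit was the scarcer transcript. The expressed pair in which the beta subunit was scarcer was Itgav with Itgb3, at 3.93 FPKM with RCE and 9.62 FPKM in con. At a mean of 5 FPKM in place of 1, 7 pairs counted as expressed over the 6 libraries. By group there were 6 with RCE and 7 in con, and the pair that differed was Itgav with Itgb3.

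**Figure D2:**
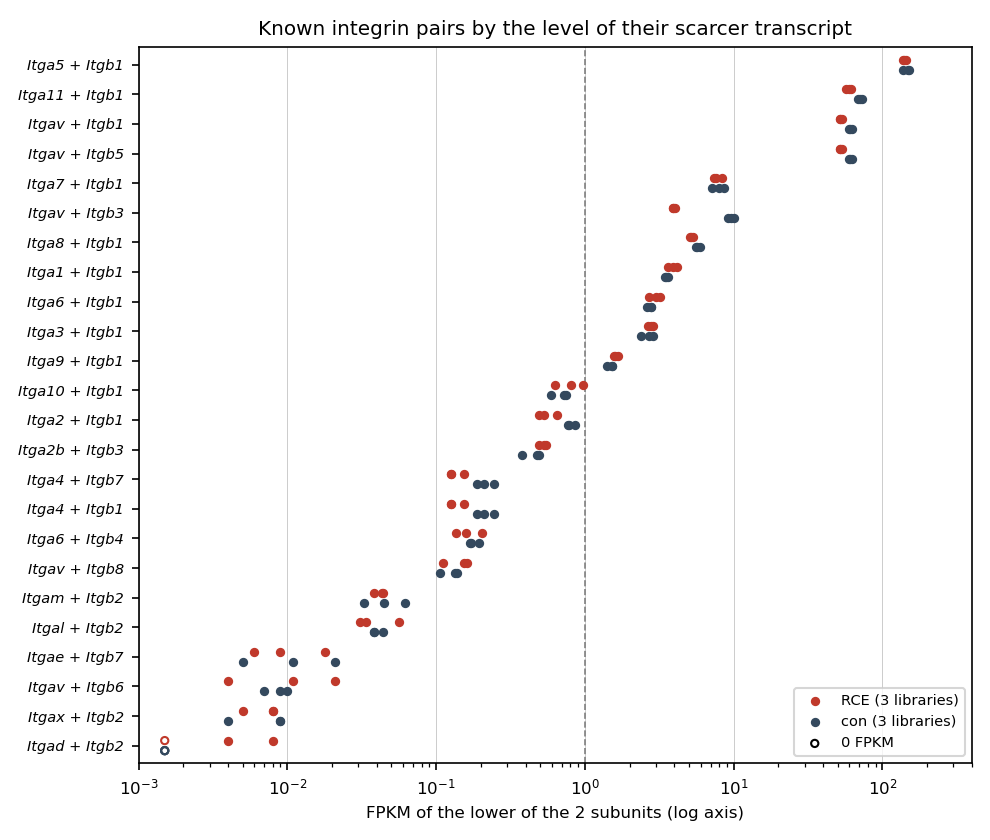
FPKM, on a log axis, of whichever subunit of each of 24 known integrin pairs was scarcer, with 1 point per library and RCE above con. The dashed line is 1 FPKM. The 11 pairs at the top have both subunits at a mean of 1 FPKM or more, and Itgav with Itgb3 shows the widest gap between RCE and con among them.

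Laminin transcripts were rich in beta and gamma chains and poor in alpha chains. Lamb1 was at 107 ± 4.03 FPKM with RCE and 98.7 ± 5.78 FPKM in con, Lamb2 at 56.7 ± 2.36 and 61.2 ± 3.14, and Lamc1, the gamma chain of most laminins, at 42.5 ± 1.61 and 49.1 ± 1.68. The 5 alpha chains together summed to 19.1 ± 0.134 FPKM with RCE and 20.1 ± 0.508 FPKM in con. Lama5, the alpha chain of most adult basement membranes, led at 10.4 ± 0.421 and 9.89 ± 0.470 FPKM, ahead of Lama4, the chain of vessel walls and other mesenchymal tissue, at 4.16 ± 0.159 and 5.57 ± 0.191, and Lama2, the muscle and nerve chain, at 3.41 ± 0.318 and 3.51 ± 0.377. Lama1, the chain of early embryonic membranes, was at 1.10 ± 0.0974 and 1.12 ± 0.136 FPKM. The epithelial chains Lama3 and Lamb3 had means of 0.0447 and 0.0932 FPKM over the 6 libraries, and Lamc3 0.0595 FPKM. Of the 15 trimers in the list used here, 9 had all 3 chains at a mean of at least 1 FPKM, and in 8 of those the alpha chain was the scarcest. At a mean of 5 FPKM 2 trimers counted, both of Lama5 and Lamc1, with either beta chain. By group there were 2 with RCE and 4 in con, where those of Lama4 and Lamc1 with either beta chain counted too. Among epithelial markers 1 of 7, Krt18, reached a mean of 1 FPKM, and their sum was 1.57 to 2.63 FPKM with RCE and 2.202 to 3.114 FPKM in con.

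With the extract, 5 of the 20 subunits that passed the filter fell and 0 rose: Itgb3, Lama4, Itga11, Itgav and Lamc1. Over all 10870 genes tested, 6.77% were called lower and 17.6% higher (24.3% in all). Beside that background the members had more calls of a fall and fewer of a rise, a reading that rests on few genes. The members were also chosen with earlier results of these data known, so this is a description and not an independent comparison. Median-of-ratios scaling turned the split over all genes to 913 higher and 1082 lower, beside 1910 higher and 736 lower as reported, and left the members at 6 lower and 0 higher. The median change of the 20 was -0.04, with -0.05 for the 12 integrin subunits and -0.03 for the 8 laminin chains, beside +0.08 over all genes. At an unadjusted p under 0.05 the lower members were the 5 named and Itga8, and no member was higher. With replicate number as a block, 7 members were lower and 1 higher, where all genes gave 15.9% lower and 46.6% higher (62.5% in all). For 6 of the 20 members the 3 RCE values all lay below the 3 con values, against 10.9% of all genes tested. For 1 member they all lay above, against 31.2% of all genes. In bulk libraries less RNA per cell and fewer cells of a type cannot be told apart.

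**Figure D3:**
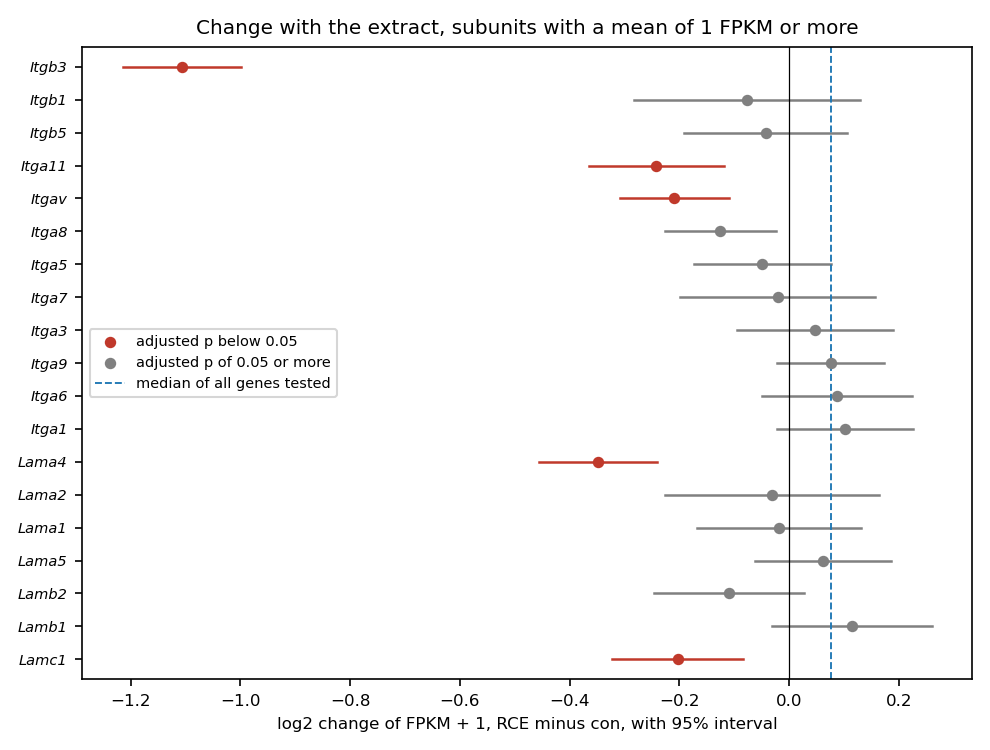
Change in log2(FPKM + 1) with RCE relative to con for subunits with a mean of at least 1 FPKM, with the 95% interval from limma. Red marks an adjusted p below 0.05, and the dashed line is the median change of all genes tested, +0.08. Itgb3 lies at -1.11, apart from the others plotted, whose changes run between -0.35 and +0.11.

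Itgb3 (ENSMUSG00000020689, chromosome 11, 104608000 to 104670476 on mm10) had by far the largest change. It was at 3.892, 3.888 and 4.004 FPKM with RCE and at 9.196, 10.037 and 9.625 FPKM in con (replicates 1, 2 and 3). The RCE values lay close together, and the groups did not overlap. The log2 change was -1.11 (SE 0.04, 95% interval -1.21 to -1.0, adjusted p = 6.2e-05 in limma). Of 10870 genes 49 had a change at or below it, Itgb3 included. The mean with RCE was 40.8% of that in con. Under all 16 alternative settings Itgb3 was called lower, with changes between -1.27 (pseudocount of 0.1) and -1.08 (con replicate 2 left out) and adjusted p between 1.2e-07 and 0.00127. Itgb3 is known from platelets too, and of 5 platelet markers Gp9 and Gp1ba were at 0 in every library and none reached a mean of 1 FPKM. That list summed to 0.115 to 0.188 FPKM with RCE and 0.262 to 0.384 FPKM in con. Most of the sum was Ppbp, at 0.162, 0.188 and 0.115 FPKM with RCE and 0.358, 0.336 and 0.262 FPKM in con. The platelet subunit Itga2b overlapped, at 0.547, 0.488 and 0.529 FPKM with RCE and 0.488, 0.376 and 0.477 FPKM in con. The leucocyte list given above was lower in sum with RCE too, with Lyz2 called lower and Cd68 not called. The part of platelets or leucocytes in the result was not tested.

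Itgav (ENSMUSG00000027087, chromosome 2, 83724397 to 83806916), the alpha partner of Itgb3, fell by much less. It was at 53.4, 52.1 and 52.2 FPKM with RCE and at 59.7, 62.3 and 60.8 FPKM in con. The groups did not overlap, and the change was -0.21 (SE 0.04, 95% interval -0.31 to -0.11, adjusted p = 0.0154). Its call ended without RCE replicate 2 (adjusted p = 0.0831), RCE replicate 3 (0.0688), con replicate 2 (0.0709) or con replicate 3 (0.0619), with changes between -0.22 and -0.19 over the settings that leave out 1 library. Of its exon bases 5.90% overlap a transcript on the other strand (Gm13684), and the sources used here do not say whether counting used strand. Itgb5, a partner more abundant than Itgb3, was at 70.6, 79.1 and 78.5 FPKM with RCE and 75.0, 78.8 and 81.0 FPKM in con. Its groups overlapped, with a change of -0.04 (95% interval -0.19 to 0.11, adjusted p = 0.664). The replicate block with GC correction called Itgb5 lower (-0.10, adjusted p = 0.0199, in a range of 0.0199 to 0.935 over its alternatives).

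Because these subunits share a partner, their proportions were compared within each library, which does not depend on scaling between libraries. Itgb3 per Itgav transcript was 0.0728, 0.0746 and 0.0768 with RCE and 0.154, 0.161 and 0.158 in con, a ratio of FPKM. The groups did not overlap, and a 2-sided exact permutation test gave p = 0.1, the smallest that 3 against 3 can give (0.2 adjusted over the 2 ratios tested). Itgb5 per Itgav was 1.321, 1.517 and 1.504 with RCE and 1.26, 1.26 and 1.33 in con (exact permutation p = 0.2, adjusted 0.2), with overlapping groups. Among the 4 beta partners of Itgav other than Itgb1, Itgb3 made up 4.91 ± 0.274% with RCE and 10.9 ± 0.337% in con, and Itgb5 94.9 ± 0.283% and 88.9 ± 0.358% (SD, n = 3 each). Itgb8 and Itgb6 together stayed under 1% of that sum in every library. With Itgb1 counted among the partners too, Itgb3 made up 0.617 ± 0.0446% with RCE and 1.42 ± 0.0476% in con.

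**Figure D4:**
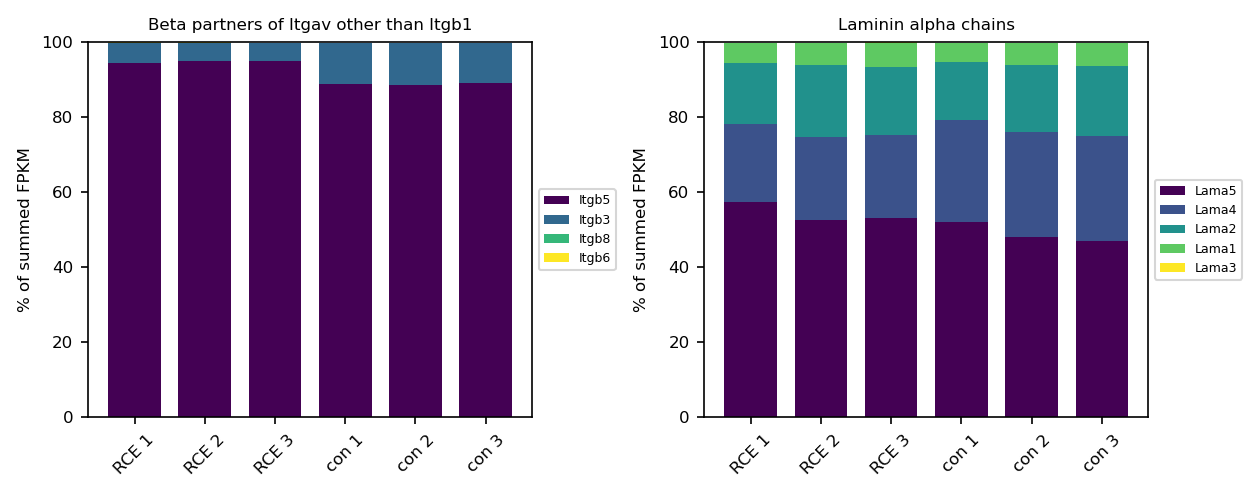
Share of summed FPKM in each library, RCE libraries left of con libraries. The left panel divides the beta partners of Itgav other than Itgb1, where Itgb3 averages 4.91% with RCE and 10.9% in con. The right panel divides the laminin alpha chains, where Lama4 averages 21.8% with RCE and 27.7% in con.

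Among collagen receptor subunits, Itga11 (ENSMUSG00000032243, chromosome 9, 62677826 to 62783982) fell. It was at 60.1, 61.7 and 57.3 FPKM with RCE and at 71.1, 68.0 and 73.2 FPKM in con, with no overlap. The change was -0.24 (SE 0.05, 95% interval -0.37 to -0.12, adjusted p = 0.0190), and the call ended without RCE replicate 2 (0.0594), RCE replicate 3 (0.0767) or con replicate 3 (0.0774). Itga1, the other collagen receptor subunit above 1 FPKM, was at 3.63, 4.16 and 3.89 FPKM with RCE and 3.48, 3.54 and 3.65 FPKM in con, a change of +0.10 with overlapping groups (95% interval -0.02 to 0.23, adjusted p = 0.199). With both replicate 1 libraries left out Itga1 was called higher (0.13, adjusted p = 0.0430, in a range of 0.0430 to 0.996 over its alternatives). Of the exon bases of Itga1, 3.68% are shared with Gm49395 on the same strand. Itga2, below the filter, was at 0.488, 0.646 and 0.532 FPKM with RCE and 0.773, 0.784 and 0.863 FPKM in con. Without the filter on low values Itga2 was called lower (-0.22, adjusted p = 0.0242), as was Itga4 at 0.125, 0.153 and 0.126 FPKM with RCE and 0.244, 0.209 and 0.189 FPKM in con (-0.10, adjusted p = 0.0261). In that fit 5.24% of 17334 genes were called lower and 11.3% higher (16.6% in all). Exons of Itga4 overlap those of Cerkl on the other strand over 8.04% of their bases.

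The fibronectin receptor subunits Itga5 and Itgb1 did not pass the threshold. Itga5 was at 145, 138 and 139 FPKM with RCE and 148, 150 and 138 FPKM in con (change -0.05, 95% interval -0.17 to 0.08, adjusted p = 0.542). Itgb1 changed by -0.08 (95% interval -0.28 to 0.13, adjusted p = 0.564). In Itgb1 both groups had their lowest value in replicate 1, and it was lower with RCE in 3 of 3 same-numbered pairs. The block with GC correction called both lower (-0.10, adjusted p = 0.0212 for Itga5, and -0.17, adjusted p = 0.00217 for Itgb1), where their alternatives reached an adjusted p of 0.949 and 0.943. Itga8 was at 5.31, 5.17 and 5.05 FPKM with RCE and 5.55, 5.71 and 5.95 FPKM in con, with no overlap, a change of -0.12 and an adjusted p of 0.0791. Itga8 was called lower in 6 of 16 alternatives, whose adjusted p ran from 0.00214 to 0.225. These were the block (0.0206), scaling by median of ratios (-0.20, 0.0262), GC correction (-0.22, 0.0302), both of block and GC correction (0.00214), quantile normalization (-0.22, 0.0249) and the omission of both replicate 1 libraries (-0.16, 0.0120). Exons of Itga8 overlap E030013I19Rik on the other strand over 5.05% of their bases.

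Laminin receptor subunits and Itga9 had small changes. Itga3, Itga6 and Itga7 changed by +0.05, +0.09 and -0.02 (95% intervals -0.09 to 0.19, -0.05 to 0.22 and -0.20 to 0.16, adjusted p = 0.601, 0.310 and 0.873). Itga9 was at 1.59, 1.68 and 1.58 FPKM with RCE and 1.40, 1.52 and 1.53 FPKM in con. Its groups did not overlap, and its change of +0.08 had an adjusted p of 0.226. The sign of Itga9 turned in 3 of 15 alternatives, that of Itga3 in 5, of Itga6 in 1 and of Itga7 in 2 of 16. No alternative called any of these 4.

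Of the laminin chains, Lama4 (ENSMUSG00000019846, chromosome 10, 38965515 to 39110188) fell. It was at 3.98, 4.25 and 4.26 FPKM with RCE and at 5.43, 5.50 and 5.79 FPKM in con. All RCE values lay below all con values, and the change was -0.35 (SE 0.04, 95% interval -0.46 to -0.24, adjusted p = 0.00380). All 15 alternatives that kept Lama4 called it lower, with changes between -0.44 (quantile) and -0.32 (RCE replicate 1 left out). Of the summed laminin alpha transcripts Lama4 held 21.8 ± 0.689% with RCE and 27.7 ± 0.443% in con, and Lama5 54.3 ± 2.59% and 49.1 ± 2.62% (SD, n = 3 each). Lama5 itself was at 10.9, 10.1 and 10.2 FPKM with RCE and 10.4, 9.50 and 9.76 FPKM in con, which overlapped (change +0.06, 95% interval -0.06 to 0.19, adjusted p = 0.427). Its sign turned with median-of-ratios scaling (-0.02) and quantile normalization (-0.01). Lama2 and Lama1 changed by -0.03 and -0.02 (95% intervals -0.23 to 0.16 and -0.17 to 0.13, adjusted p = 0.819 and 0.869). Lama4 is also a vessel wall gene, and of 6 endothelial markers Kdr and Emcn reached 1 FPKM. That list summed to 2.76 to 3.04 FPKM with RCE and 3.18 to 3.53 FPKM in con, with Cdh5 at 0.021 to 0.030 and 0.053 to 0.058 FPKM. Emcn was at 1.429, 1.434 and 1.418 FPKM with RCE and 1.76, 1.647 and 1.877 FPKM in con. It was called lower (change -0.19, adjusted p = 0.0257 in limma), and Kdr was not called. Kdr overlapped, at 1.089, 1.216 and 1.26 FPKM with RCE and 1.055, 1.33 and 1.226 FPKM in con. Tek, Pecam1 and Tie1 overlapped between the groups too. The part of these markers in the result was not tested.

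The gamma chain Lamc1 (ENSMUSG00000026478, chromosome 1, 153218922 to 153332786) fell as well. It was at 44.4, 41.8 and 41.4 FPKM with RCE and at 50.9, 47.6 and 48.7 FPKM in con, with no overlap. The change was -0.20 (SE 0.05, 95% interval -0.32 to -0.08, adjusted p = 0.0307). The call rested on all libraries but RCE replicate 1. It ended without RCE replicate 2 (0.123), RCE replicate 3 (0.111), con replicate 1 (0.0692), con replicate 2 (0.0723) or con replicate 3 (0.0930), and with quantile normalization (0.108). In both groups replicate 1 had the highest Lamc1 level. Lamc3, below the filter, was at 0.033, 0.043 and 0.045 FPKM with RCE and 0.093, 0.068 and 0.075 FPKM in con, and was called lower without the filter (-0.05, adjusted p = 0.0289). On the longest Lamc3 transcript 1 fragment gives 0.00289 to 0.00373 FPKM, so these values rest on few fragments, and 6.27% of its exon bases overlap Gm13441 on the other strand.

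The beta chains had changes of opposite sign, and neither passed the threshold in the fit without the block on all 6 libraries as deposited. Lamb1 was at 102, 109 and 110 FPKM with RCE and 92.2, 101 and 103 FPKM in con, with overlapping groups (change +0.11, 95% interval -0.03 to 0.26, adjusted p = 0.222). It was higher with RCE in 3 of 3 same-numbered pairs (adjusted p = 0.00505 with the block), and was called with both replicate 1 libraries left out too (0.10, 0.0316), in a range of 0.00505 to 0.779 over the alternatives. Lamb2 was at 59.3, 54.8 and 56.0 FPKM with RCE and 64.8, 60.2 and 58.8 FPKM in con (change -0.11, 95% interval -0.25 to 0.03, adjusted p = 0.213). It was lower in 3 of 3 pairs (adjusted p = 0.00648 with the block), and was also called with GC correction (-0.16, 0.0318), with both corrections (0.00112) and with both replicate 1 libraries left out (-0.10, 0.0281), in a range of 0.00112 to 0.492 over the alternatives. Lamb1 held 65.3 ± 1.76% of the beta chain transcripts with RCE and 61.7 ± 2.62% in con. Median-of-ratios scaling brought the change of Lamb1 to +0.03. In the trimers of Lama5 with Lamc1 and either beta chain 1 chain fell, Lamc1, while in those of Lama4 with Lamc1 2 did.

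**Figure D5:**
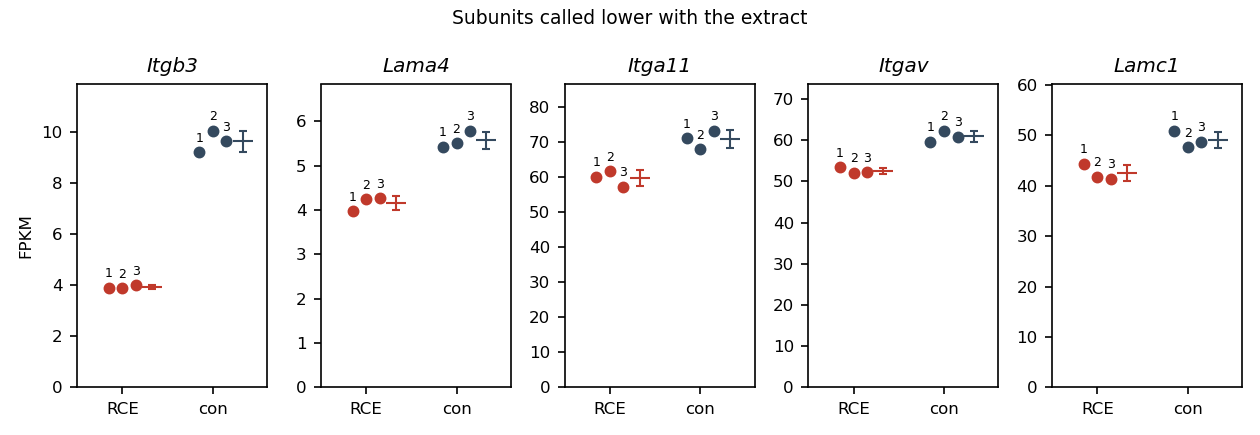
FPKM of the 5 subunits called lower with RCE, from left to right by size of change, on linear axes that start at 0. Points are libraries numbered by replicate, RCE left of con, and the bars give the mean ± SD of 3. No RCE value reaches a con value in any panel.

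The promoters of the called subunits are shown for the 2 of the 5 that the RefSeq promoter table holds, Itga11 and Itgav, which fell by like amounts. Of the 37 members 23 were in that table. The sequences are the 250 bases before the RefSeq start on build GRCm38.p6, 5′ to 3′ on the plus strand, at chr9:62677605-62677854 for Itga11 and chr2:83724147-83724396 for Itgav. The gene start given above for Itga11, 62677826, lies inside its window, so the end of that window is within the annotated gene. For Itgav the gene start, 83724397, is the base after the window. Capitals mark the ETS site letters ACTTCC, or GGAAGT on the other strand.
Itga11: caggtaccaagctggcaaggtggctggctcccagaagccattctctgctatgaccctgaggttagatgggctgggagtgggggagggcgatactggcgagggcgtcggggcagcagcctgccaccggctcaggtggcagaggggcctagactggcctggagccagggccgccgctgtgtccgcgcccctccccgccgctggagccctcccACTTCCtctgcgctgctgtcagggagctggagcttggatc
Itgav: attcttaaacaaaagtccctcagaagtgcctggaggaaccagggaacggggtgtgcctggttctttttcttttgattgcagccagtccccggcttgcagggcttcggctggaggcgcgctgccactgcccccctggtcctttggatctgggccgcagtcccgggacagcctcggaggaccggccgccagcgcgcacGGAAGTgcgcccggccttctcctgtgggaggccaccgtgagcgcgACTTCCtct

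Neither window held the Sp1 GC box GGGCGG, the AP-1 site TGANTCA, the hypoxia response core ACGTG or the CCAAT box, on either strand. Over the windows of 27025 genes these letters were in 32.9%, 6.87%, 16.6% and 34.5%. The ETS letters were added after reading these 2 sequences. They begin 40 bases before the RefSeq start in Itga11, and 54 (minus strand) and 9 bases before it in Itgav. They are in 20% of all windows and in 7 of the 23 members'. A match describes the letters alone, and no match says only that they are not in this window.

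The genes that work around the receptors were counted in lists, each beside the shares of all genes tested, 17.6% higher and 6.77% lower, or 46.6% and 15.9% with the block. These lists too were chosen with earlier results of these data known, so their counts are descriptions. Of 30 tested genes of integrin activation and focal adhesion, the cytoplasmic machinery of adhesion, 1 was higher and 0 lower (median change +0.01, against +0.08 over all genes). Nedd9, a scaffold of the Cas family, was at 6.86 ± 0.257 FPKM with RCE and 4.18 ± 0.299 FPKM in con (change +0.60, adjusted p = 0.00125). Talin (Tln1) was at 91.0 ± 5.07 FPKM with RCE and 90.9 ± 6.02 FPKM in con (change +0.00, adjusted p = 0.990), and vinculin (Vcl) and paxillin (Pxn) changed by +0.17 (adjusted p = 0.0686) and -0.28 (adjusted p = 0.146). With the block 10 of the 30 were higher, Vcl among them, and 11 lower, Pxn among them.

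Of 15 membrane partners of integrins 5 were lower and 1 higher, where 6.77% and 17.6% of all genes were. With the block 10 were lower and 3 higher, against 15.9% and 46.6% of all genes, and the median change was -0.18. The tetraspanin Cd9 was at 33.5 ± 0.234 FPKM with RCE and 55.8 ± 0.8 FPKM in con (change -0.72, adjusted p = 1.7e-04). The heparan sulfate proteoglycan Sdc4, a coreceptor for fibronectin, was at 17.3 ± 2.55 FPKM with RCE and 33.3 ± 5.06 FPKM in con (change -0.90, adjusted p = 0.00766). Cav1, the coat protein of caveolae, was at 97.6 ± 0.820 FPKM with RCE and 143 ± 5.72 FPKM in con (change -0.54, adjusted p = 0.00106). The others lower were Sdc2 (-0.19, adjusted p = 0.0334) and Sdc3 (-0.30, adjusted p = 0.0408). The call of Sdc2 ended with quantile normalization (0.0521) and with any 1 library left out, RCE replicates 1, 2 and 3 (0.0624, 0.0980 and 0.0932) and con replicates 1, 2 and 3 (0.0522, 0.0965 and 0.119). That of Sdc3 ended with no filter (0.0552), a minimum mean of 5 FPKM (0.0540), quantile normalization (0.0912), and without RCE replicate 2 (0.141), RCE replicate 3 (0.130) or con replicate 1, 2 or 3 (0.0813, 0.0951 and 0.0821). The one higher, Slc3a2, the heavy chain that xCT and other transporters share, changed by +0.19 (adjusted p = 0.0261), a call that ended with scaling by median of ratios (0.211), GC correction (0.101), and without RCE replicate 2 (0.114), RCE replicate 3 (0.0740), con replicate 2 (0.101) or con replicate 3 (0.0982). The calls of Cd9, Sdc4 and Cav1 held in every alternative, while the count of lower partners ran from 3 without RCE replicate 2 to 12.

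Among 21 tested ligands other than collagens and laminins 6 were lower and 1 higher, where 6.77% and 17.6% of all genes were. With the block 15 were lower and 2 higher, against 15.9% and 46.6% of all genes, and the median change was -0.18. The ligand of Itga8, nephronectin (Npnt), was at 0.945 ± 0.0221 FPKM with RCE and 1.54 ± 0.0429 FPKM in con (change -0.38, adjusted p = 0.00125). Its RCE values were all below 1 FPKM, so Npnt passed the filter only through con. Without the filter on low values it was called lower too (-0.38, adjusted p = 0.00157 in limma). Ccn3, a matricellular protein, changed by -0.70 (adjusted p = 0.00580) and tenascin-C (Tnc), a ligand of Itga9, by -0.30 (adjusted p = 0.0146). The call of Tnc ended with quantile normalization (0.144), and without RCE replicate 2 (0.0722), RCE replicate 3 (0.0614) or con replicate 2 (0.0510). Ccn1, the one higher, changed by +0.54 (adjusted p = 0.0161), and its call ended without RCE replicate 2 (0.0513), con replicate 2 (0.0606) or con replicate 3 (0.0662). Fibronectin (Fn1) was at 1825 FPKM with RCE and 2028 FPKM in con (change -0.15, adjusted p = 0.260, and 0.0116 with the block), and vitronectin (Vtn) averaged 0.00167 FPKM. Lower ligands ran from 2 without RCE replicate 2 to 16.

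Of 18 tested basement membrane partners of laminin and other laminin receptors 3 were higher and 1 lower, which is near the 17.6% and 6.77% of all genes. With the block 6 were higher and 4 lower, against 46.6% and 15.9% of all genes, and the median change was +0.04. Nidogen 1 (Nid1), which links laminin gamma chains to collagen IV, was at 452 ± 4.70 FPKM with RCE and 377 ± 3.17 FPKM in con (change +0.26, adjusted p = 0.00959), and its call ended without RCE replicate 2 (0.0617). Netrin 4 (Ntn4), a laminin-related protein, changed by +0.31 (adjusted p = 0.0146), which ended without RCE replicate 2 (0.0650) or con replicate 2 (0.0586). Sgce, a sarcoglycan, changed by +0.23 (adjusted p = 0.0364), a call lost in 9 alternatives, each of the 6 that leave out 1 library among them. Smoc1, a basement membrane relative of Sparc, was lower (-0.48, adjusted p = 0.00773). Dystroglycan (Dag1), the main other laminin receptor, changed by -0.19 (adjusted p = 0.301, and 3.3e-04 with the block), and the collagen IV chains Col4a1 and Col4a2 by -0.05 and -0.07 (adjusted p = 0.489 and 0.545).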

How the data were processed

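Messenger RNA libraries were made with the Illumina TruSeq Stranded kit, per the labels' protocols. The authors deposited 1 FPKM value per gene and library. The table names no unit. FPKM was inferred from the submitters' processing notes, which list Cuffdiff 2.2.1, Cufflinks, STAR 2.5.4 and the mm10 build but not what each was used for, and from the values, which step by whole fragments per transcript length. Annotation, filters and use of strand: not given in the sources used here.

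Groups came from the labels (RCE, n = 3, and con, n = 3). FPKM are not counts, so limma 3.58.1 (R 4.3.3) was run on log2(FPKM + 1) with an intensity trend for the 10870 genes averaging 1 FPKM or more, 2-sided, without a block. The fit was tested on simulated data whose noise was drawn independently for each gene and library. The simulation left out the shift of replicate 1 seen in both groups, so it does not cover the fit under that shift. Of symbols on several rows (24 repeats), lists took the most abundant. Depth is the number of fragments at which FPKM times transcript length came out whole, within 0.1 of a fragment, for values of 0.02 to 0.5 FPKM of genes with 1 transcript in GENCODE M21, which also gave coordinates, GC content and overlaps (21853 of 21853 identifiers matched). It covers counting error only.

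The labels do not say what a replicate number marks. Deviations from group means correlated at 0.918, 0.620 and 0.681 for numbers 1, 2 and 3, over 0.1 in each, and libraries of like number were treated as pairs in the block. Only number 1 stood apart: RCE replicate 3 correlated with con replicate 2 at 0.771 and RCE replicate 2 with con replicate 3 at 0.724, above their same-numbered values, so the data do not tell numbers 2 and 3 apart.

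The members, pair, trimer and gene lists were chosen with earlier results of these data known. All members with a mean of at least 1 FPKM are named with values, except 1 that is counted but not reported here, the others by name and range, and of each other list up to 3 called genes per direction by smallest p. Other genes named from those lists (Tln1, Vcl, Pxn, Sdc2, Sdc3, Fn1, Vtn, Dag1, Col4a1 and Col4a2) were chosen after their values were seen. Alternatives were pseudocounts of 0.1 and 0.5, no filter or 5 FPKM, median-of-ratios and quantile scaling, the replicate block, GC correction (a loess trend of each library on GC, span 0.3), both together, each library left out, and both replicate 1 libraries left out.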

Additional observations from a re-analysis of the deposited data

How the results depend on the processing

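Itgb3 and Lama4 stayed lower in every alternative that kept them. The replicate block changed the calls of Itga8, Lamb1 and Lamb2 and of no other member. The calls of Itga11, Itgav and Lamc1 ended under the settings named with them, and no member reversed past the threshold. Integrin subunits called lower, 3 in the fit as reported, were 5 with no low-value filter and 7 with the replicate block and GC correction. They were 4 with median-of-ratios scaling, quantile normalization, the block, GC correction or both replicate 1 libraries left out. With 1 library left out they were 1 to 3. Those called higher were 0, and 1 with both replicate 1 libraries left out. Laminin chains called lower were 2, and 1 with a minimum mean of 5 FPKM (which drops Lama4) or quantile normalization. They were 3 with no low-value filter, the block, GC correction, both together, or both replicate 1 libraries left out. With 1 library left out they were 1 to 2. Those called higher were 0, and 1 with the replicate block or with both replicate 1 libraries left out. Over all genes 1910 higher and 736 lower calls became 867 and 485 with a minimum mean of 5 FPKM, 5060 and 1730 with the replicate block, 890 and 1185 with GC correction, 2745 and 2952 with both, 4364 and 1480 with both replicate 1 libraries left out, and 685 to 2040 and 394 to 734 with 1 library left out. The split between rises and falls turned with scaling: higher calls were 913 with median-of-ratios scaling (1082 lower) and 785 with quantile normalization (857 lower). Expressed pairs were 7 and trimers 2 at 5 FPKM, and 11 and 7 where every library had to reach 1 FPKM. The alternatives for the pathway lists were added after the data were seen. The cause of these shifts was not tested. With 3 libraries a group, changes of members at a few FPKM or less are limited in precision.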
